A study of Mus musculus with 12 samples.

Results

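The 37 genes described here carry glucose into heart muscle, break it down to lactate or store it as glycogen. They were chosen by gene symbol for the roles of their products, with earlier results of these data known. Each is represented by its probe set of highest mean. Of the 37 genes, 33 were measured, among 19505 genes measured in all. Glucose uptake and its brakes were represented by 5 of 5 genes, the upper steps of glycolysis by 9 of 12, the lower steps by 6 of 7, lactate handling by 3 of 3 and glycogen by 10 of 10. Gpi1, Pfkfb1, Pfkfb2 and Eno1 were not analysed here.

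Expression was measured on single-colour arrays in the myocardium of 12 mice, in 3 groups of 4. NC mice received intraperitoneal vehicle on 5 days and no angiotensin IV. DM mice received streptozotocin, a toxin of insulin-producing beta cells, on 5 consecutive days, and entered the study if their fasting blood glucose, measured 2 weeks afterwards, reached 16.7 mM or more. DM_AngIV mice had the same streptozotocin diabetes and received angiotensin IV, a peptide cut from angiotensin II, as a high-dose infusion (2.88 mg/kg/day) that ran from the end of week 8 to the end of week 24. The labels give 6 months as the duration for each group, and the sources used here do not give the strain, sex or age. They describe no non-diabetic group given the peptide, so its effect outside diabetes was not measured. Streptozotocin diabetes is a model of insulin loss. The series title concerns attenuation of diabetic cardiomyopathy by angiotensin IV, so the comparisons address diabetes (DM against NC), treatment within diabetes (DM_AngIV against DM) and what remains different from health (DM_AngIV against NC).

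The working heart takes up glucose through GLUT4, which insulin moves to the cell surface, and GLUT1, which is less dependent on insulin. Hexokinase traps glucose as glucose 6-phosphate, which enters glycolysis or is stored as glycogen, and phosphofructokinase is the main committed step of glycolysis. In diabetes the heart is known to lean on fatty acids and to use less glucose. Txnip and its paralogue Arrdc4 are arrestin-like proteins that respond to glucose through the factors ChREBP and MondoA and hold back glucose uptake.

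The promoters shown are those of the glucose-responsive brakes Txnip and Arrdc4, and of Pfkfb3 and Slc2a1. The last 2 are among 16 members with the hypoxia core motif and were picked with their values known. Each is the 250 bases before a transcription start from RefSeq (GRCm38.p6), read in the direction of the gene, and capitals mark the motif named. The Txnip promoter holds 2 imperfect E-boxes 5 bases apart, the form of a carbohydrate response element, and the motif ends 69 bases before the start. The Arrdc4 promoter holds 1 perfect E-box. Capitals in both Pfkfb3 promoters and in the Slc2a1 promoter mark the hypoxia core on either strand.
Txnip, chr3:96557707-96557956 (+): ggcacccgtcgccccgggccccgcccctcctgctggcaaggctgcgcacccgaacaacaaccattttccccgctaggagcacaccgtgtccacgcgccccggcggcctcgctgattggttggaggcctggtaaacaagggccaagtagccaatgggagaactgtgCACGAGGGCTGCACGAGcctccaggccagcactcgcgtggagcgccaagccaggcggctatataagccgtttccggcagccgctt
Arrdc4, chr7:68749239-68749488 (-): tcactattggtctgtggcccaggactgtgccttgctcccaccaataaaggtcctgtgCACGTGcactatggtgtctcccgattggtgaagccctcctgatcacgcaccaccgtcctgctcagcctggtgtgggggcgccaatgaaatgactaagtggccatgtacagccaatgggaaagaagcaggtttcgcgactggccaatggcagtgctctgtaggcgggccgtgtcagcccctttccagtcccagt
Pfkfb3, chr2:11502091-11502340 (-): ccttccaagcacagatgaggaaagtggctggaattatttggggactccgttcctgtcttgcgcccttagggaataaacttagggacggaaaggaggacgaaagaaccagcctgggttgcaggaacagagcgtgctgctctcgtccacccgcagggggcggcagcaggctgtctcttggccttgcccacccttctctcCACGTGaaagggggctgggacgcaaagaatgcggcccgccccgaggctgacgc
Pfkfb3, chr2:11553930-11554179 (-): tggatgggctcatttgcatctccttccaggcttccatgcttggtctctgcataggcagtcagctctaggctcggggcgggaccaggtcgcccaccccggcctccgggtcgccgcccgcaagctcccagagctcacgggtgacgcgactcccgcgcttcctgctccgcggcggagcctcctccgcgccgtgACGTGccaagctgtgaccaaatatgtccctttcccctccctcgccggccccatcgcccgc
Slc2a1, chr4:119108495-119108744 (+): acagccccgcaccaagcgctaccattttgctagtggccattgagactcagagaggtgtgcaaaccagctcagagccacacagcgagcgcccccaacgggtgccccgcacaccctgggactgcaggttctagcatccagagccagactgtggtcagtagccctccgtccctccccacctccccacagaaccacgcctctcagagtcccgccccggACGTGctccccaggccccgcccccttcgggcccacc

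The E-box CACGTG, searched on both strands, was in 5 of 43 promoters of the measured members (11.6%, in Arrdc4, Ldha, Pfkfb3, Pfkm and Ppp1r3c), against 6.88% of 19143 promoters of all measured genes and 6.02% of 32851 promoters in the table. The pair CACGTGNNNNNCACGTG was in 0 promoters. Its imperfect form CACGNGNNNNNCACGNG, added after the values were seen, was in 15 promoters of the table (0.0457%), with Txnip the only member. The hypoxia core ACGTG, which every E-box contains, was in 19 of 43 member promoters (44.2%) against 18.3% for all measured genes. Member promoters also held more CG dinucleotides, with a median of 13 against 10 for measured genes and 6 for the table, and the part of this in the motif counts was not tested. A match describes letters in the window and does not show binding. Slc2a4 had no entry.

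All values are log2 expression. The medians of the arrays lay between 4.12 and 4.19, and pairwise correlations over genes between 0.977 and 0.99. The level called background is the 95th percentile of 246 reporter control probe sets, 4.96. Of the 33 measured members, 29 had a mean above it, and Aldoc and Slc16a3 were at or below it on all arrays. Pfkfb3 was above it only in DM replicate 1, and Pygl only in NC replicate 3. The ventricular marker list had 8 measured genes and a mean level of 11.18 in NC, 11.11 in DM and 11.21 in DM_AngIV. Skeletal muscle markers were at or below background for 6 of 10 genes. Atrial muscle was present unevenly: the atrial light chain Myl7 lay between 7.90 and 10.08 in NC replicates 1 and 3 and DM replicates 1, 2 and 4, and between 3.53 and 4.28 on the other 7 arrays, which include all 4 of DM_AngIV. A fit without the arrays with atrial signal therefore keeps 2 NC hearts, 4 DM_AngIV hearts and 1 DM heart, replicate 3, so its DM values are those of 1 heart, with the spread taken from the other groups, and they show no stability or loss. The mean of the 7 atrial markers ranged from 4.68 to 7.87 in NC, 4.36 to 7.35 in DM and 4.66 to 4.92 in DM_AngIV, with Bmp10 below background in every heart. A slope on this mean was called for 0 members and 11 genes (0.0564%). The DM_AngIV hearts hardly differ on the mean, so the slope comes mostly from NC and DM hearts. DM_AngIV values adjusted for the mean rest on that slope. All 6 measured adipocyte markers were at or below background. The mean of 6 fibroblast markers was 7.10 to 7.56 in NC, 7.04 to 7.29 in DM and 6.81 to 7.18 in DM_AngIV, that of 7 endothelial markers 7.59 to 7.82, 7.65 to 8.01 and 7.72 to 8.02, and that of 2 erythroid markers 5.72 to 5.92, 5.78 to 6.03 and 5.75 to 6.22. These are bulk samples, in which fewer cells of a type and less RNA per cell cannot be told apart.

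**Figure D1:**
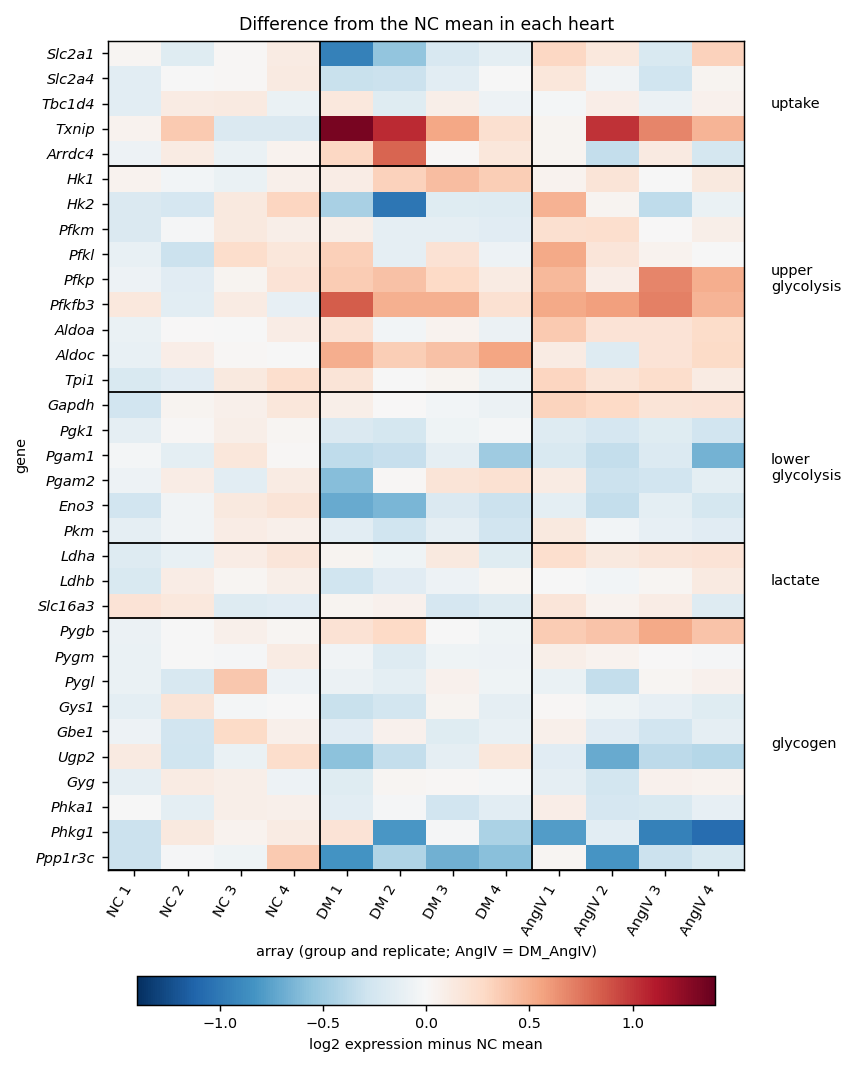
Heat map of the 33 measured members (rows, by role) in 12 hearts (columns), as log2 expression minus the NC mean, red higher and blue lower. Txnip is highest in DM replicates 1 and 2, and Pygb is red in all 4 DM_AngIV hearts.

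At the threshold of an adjusted p below 0.05 over all genes (limma, Benjamini-Hochberg), 0 members were called in DM against NC, where 3 genes (0.0154%) were. In DM_AngIV against DM 0 members were called beside 0 genes (0%), and in DM_AngIV against NC 0 members beside 198 genes (1.02%). With both diabetic groups pooled against NC, 1 member was called, Pfkfb3, beside 123 genes (0.631%). For the pooled groups 11 members (33.3%, against 13.1% of all genes) had an unadjusted limma p below 0.05 and for 1 member (3.03%, against 1.95%) the groups did not overlap. At the same unadjusted threshold the members numbered 10 in DM against NC (30.3%, against 8.95% of all genes), 8 in DM_AngIV against DM (24.2%, against 7.48%) and 10 in DM_AngIV against NC (30.3%, against 14.6%). Well expressed genes pass more often: among the 8372 genes with a mean above background the shares were 10.7%, 8.8% and 21.6%, and among the 29 such members 27.6%, 24.1% and 31%.

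Groups did not overlap for 4 members in DM against NC (12.1%, against 4.54% of all genes), 4 in DM_AngIV against DM (12.1%, against 5.01%) and 6 in DM_AngIV against NC (18.2%, against 9.83%). Among members above background these shares were 6.9%, 10.3% and 17.2%, close to the 6.34%, 6.76% and 17.5% of all genes above background. The comparisons share arrays, so their counts are not independent. The median log2 fold change of the 33 members was -0.08 in DM against NC, with 10 positive, 0.10 in DM_AngIV against DM, with 21 positive, and 0.02 in DM_AngIV against NC, with 18 positive. The medians of all genes were within 0.01 of 0.

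**Figure D2:**
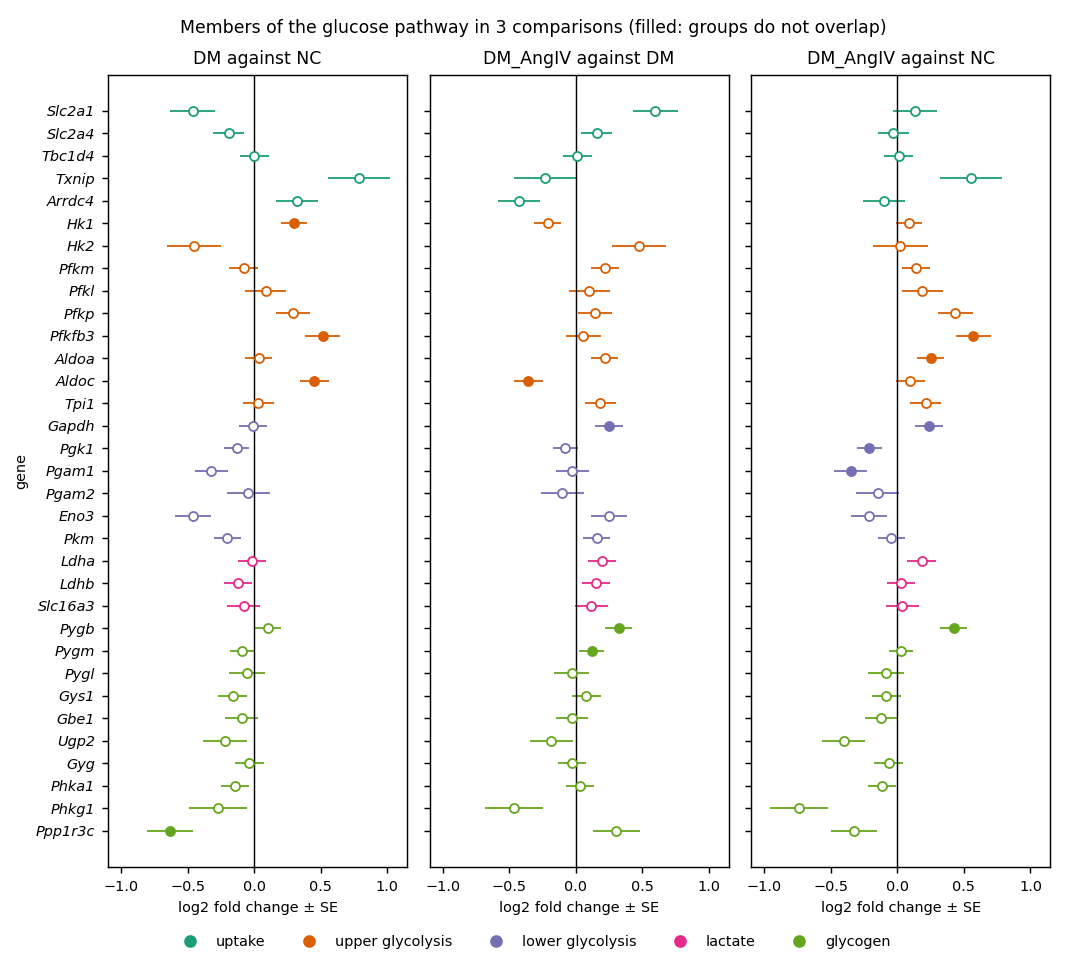
Log2 fold change with its standard error (horizontal axis) of each of the 33 measured members (vertical axis, coloured by role), 1 panel per comparison. Filled points mark members whose groups do not overlap, which are 4, 4 and 6 in the 3 panels.

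Among the uptake genes, the RNA of GLUT1 was lowest in DM hearts and that of Txnip highest, and the RNA of GLUT4 differed less by group mean. Slc2a1, the gene of GLUT1, stood at 6.63, 6.44, 6.62 and 6.72 in NC hearts, 5.66, 6.05, 6.37 and 6.47 in DM hearts and 6.89, 6.75, 6.38 and 6.92 in DM_AngIV hearts. DM replicates 1, 2 and 3 were the lowest of the 12 hearts, replicate 3 by a small step (6.374 against 6.383 in DM_AngIV replicate 3). DM replicate 4 reached the lowest NC and DM_AngIV values, so the groups overlap. Its log2 fold change was -0.46 ± 0.17 (SE, n = 4 per group, limma adjusted p = 0.418) in DM against NC, 1.38-fold lower. It was 0.60 ± 0.17 (1.51-fold higher, adjusted p = 0.511) in DM_AngIV against DM, and 0.13 ± 0.17 (adjusted p = 0.777) in DM_AngIV against NC. Without DM replicate 1 the DM against NC value was -0.30, and without DM replicates 1 and 2 together it was -0.18 and the DM_AngIV against DM value 0.31. That pair was left out after the data were seen and holds the 2 lowest Slc2a1 values, so the smaller differences follow from the choice. DM replicates 1 and 2 also had high Myl7, as did NC replicates 1 and 3 and DM replicate 4, where Slc2a1 was 6.63, 6.62 and 6.47. The slope of Slc2a1 on the atrial marker mean was -0.07 ± 0.07 (SE) per log2 unit (limma adjusted p = 0.947). With the atrial marker mean in the fit the fold changes were -0.45 in DM against NC and 0.50 in DM_AngIV against DM. With replicate 3 as the only DM heart, in the fit without atrial arrays, they were -0.20 and 0.36.

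Slc2a4, the gene of GLUT4, read 7.85, 8.00, 8.02 and 8.13 in NC hearts, 7.69, 7.70, 7.85 and 7.99 in DM hearts and 8.16, 7.95, 7.72 and 8.04 in DM_AngIV hearts. The 3 groups overlap. DM replicates 1, 2 and 3 lay below every NC heart, replicate 3 by a small step (7.851 against 7.854), and DM replicate 4 did not. Its group means were 8.00 ± 0.11, 7.81 ± 0.14 and 7.97 ± 0.18 (SD, n = 4) in NC, DM and DM_AngIV. The fold changes were -0.19 ± 0.12 in DM against NC and 0.16 ± 0.12 in DM_AngIV against DM (limma adjusted p = 0.681 and 0.783). DM against NC was -0.08 without DM replicates 1 and 2, the 2 lowest hearts, left out after the data were seen. DM_AngIV against DM was then 0.05, and it was 0.09 without DM_AngIV replicate 1, 0.24 without DM_AngIV replicate 3 and 0.07 with the atrial marker mean in the fit. Tbc1d4, the AS160 protein that holds GLUT4 vesicles inside the cell until insulin signals, had means of 8.06, 8.06 and 8.07, and its 3 fold changes lay between -0.00 and 0.01 with a standard error of 0.11.

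Txnip, the thioredoxin-interacting protein, gave 10.11, 10.43, 9.86 and 9.86 in NC hearts, 11.39, 11.11, 10.61 and 10.29 in DM hearts and 10.10, 11.08, 10.75 and 10.54 in DM_AngIV hearts. It was above all NC hearts in 3 of 4 DM and 3 of 4 DM_AngIV hearts. DM replicate 4 and DM_AngIV replicate 1 lay among the NC values. The fold change was 0.79 ± 0.23 (1.72-fold higher, limma adjusted p = 0.308) in DM against NC and 0.55 ± 0.23 (adjusted p = 0.287) in DM_AngIV against NC. In DM_AngIV against DM it was -0.23 ± 0.23 (adjusted p = 0.842), and this turned to 0.17 without DM replicates 1 and 2 and to 0.01 in the fit without atrial arrays, where DM is replicate 3 alone. DM against NC was 0.38 and 0.47 in the same fits. DM replicates 1 and 2 hold the 2 highest Txnip values and were left out together after the data were seen. The shift without them therefore follows from the choice. Leaving out 1 array moved the DM_AngIV against DM value to between -0.42 and -0.05. Txnip varied more within groups than any other measured member, with a residual SD of 0.40, at percentile 97.6 of all genes.

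Arrdc4, the paralogue of Txnip, had values of 5.21, 5.40, 5.20 and 5.34 in NC hearts, 5.58, 6.11, 5.30 and 5.45 in DM hearts and 5.33, 4.96, 5.42 and 5.04 in DM_AngIV hearts. DM replicate 2 was the highest of the 12, and DM_AngIV replicate 2 lay at the background level. The groups overlap. In DM_AngIV against DM the fold change was -0.43 ± 0.16 (1.34-fold lower, limma adjusted p = 0.620), which was -0.26 without DM replicate 2. In DM against NC it was 0.32 ± 0.16 (adjusted p = 0.581), and replicate 3, the only DM heart without atrial signal, gave -0.07. Over the 12 hearts Txnip and Arrdc4 had a Pearson r of 0.36 and a Spearman rho of 0.36 (permutation p = 0.275 and 0.255, adjusted over 5 pairs 0.652 and 0.739). Without NC replicate 3 and DM replicate 1, r was 0.24, and on residuals from the group means 0.21.

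**Figure D3:**
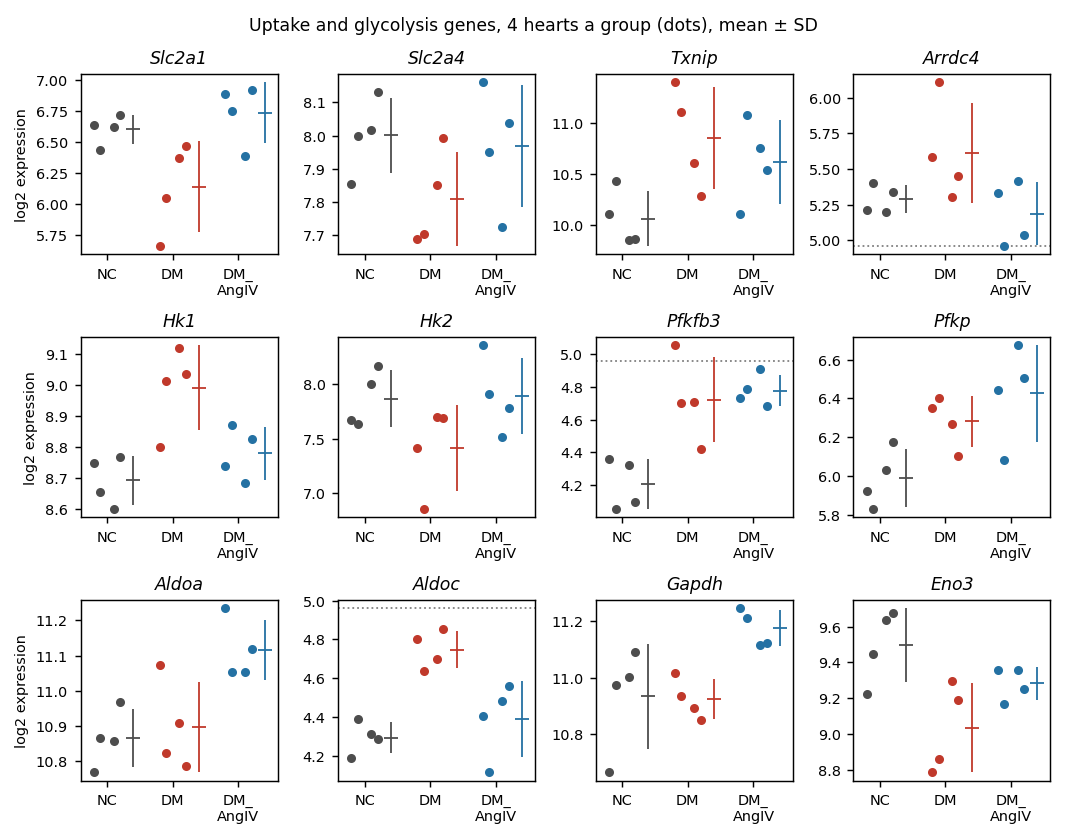
Log2 expression of uptake and glycolysis genes (1 panel per gene) in each heart of NC, DM and DM_AngIV, with group means and SD (n = 4). Slc2a1 and Hk2 have their 2 lowest values in DM hearts, while Hk1 and Aldoc in DM lie above all NC hearts.

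In the upper steps of glycolysis, from hexokinase to triose phosphates, 7 of 9 measured members had a positive fold change in DM against NC, 7 of 9 in DM_AngIV against DM and 9 of 9 in DM_AngIV against NC, with medians of 0.09, 0.14 and 0.19. 0 were called in these comparisons, and 5, 3 and 3 had an unadjusted limma p below 0.05, beside 8.95%, 7.48% and 14.6% of all genes. These counts include Pfkfb3 and Aldoc, which lay near or below background.

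The hexokinases lay in opposite directions in DM hearts. Hk1, the widely expressed form bound to mitochondria, stood at 8.75, 8.66, 8.60 and 8.77 in NC hearts, 8.80, 9.01, 9.12 and 9.04 in DM hearts and 8.74, 8.87, 8.68 and 8.83 in DM_AngIV hearts. Every DM heart lay above every NC heart, by as little as the step from 8.77 to 8.80, and the DM_AngIV hearts lay among both. The fold change was 0.30 ± 0.10 (1.23-fold higher, limma adjusted p = 0.378) in DM against NC. It was 0.39 without DM replicates 1 and 2, the 2 lowest DM hearts, left out after the data were seen. In DM_AngIV against DM it was -0.21 ± 0.10 (adjusted p = 0.671). Hk2, the insulin-regulated form of muscle and heart, stood at 7.67, 7.63, 8.00 and 8.17 in NC hearts, 7.42, 6.85, 7.70 and 7.69 in DM hearts and 8.36, 7.91, 7.52 and 7.78 in DM_AngIV hearts. DM replicate 2 was the lowest of the 12 hearts and DM_AngIV replicate 1 the highest, and the groups overlap. Hk2 had fold changes of -0.45 ± 0.20 (adjusted p = 0.525) in DM against NC and 0.48 ± 0.20 (adjusted p = 0.643) in DM_AngIV against DM. They were -0.27 and 0.29 without DM replicate 2, and -0.20 and 0.19 with replicate 3 as the only DM heart, in the fit without atrial arrays. In DM_AngIV against NC the value was 0.02 ± 0.20, and its sign turned in several alternatives. Whether Hk1 and Hk2 differ in their response to diabetes was not tested.

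Of the phosphofructokinases, the muscle form Pfkm had means of 9.90, 9.82 and 10.04 in NC, DM and DM_AngIV, and the liver form Pfkl 7.22, 7.31 and 7.41. Neither had an unadjusted limma p below 0.05 in any of the 3 comparisons. The platelet form Pfkp stood at 5.92, 5.83, 6.03 and 6.18 in NC hearts, 6.35, 6.40, 6.27 and 6.10 in DM hearts and 6.44, 6.08, 6.67 and 6.50 in DM_AngIV hearts. It was higher than in every NC heart in 3 of 4 DM and 3 of 4 DM_AngIV hearts. The fold changes were 0.29 ± 0.13 (limma adjusted p = 0.525) in DM against NC and 0.44 ± 0.13 (1.35-fold higher, adjusted p = 0.121) in DM_AngIV against NC.

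Pfkfb3, which makes and removes fructose 2,6-bisphosphate, an activator of phosphofructokinase, was the only member called in any comparison. Its values were 4.36, 4.05, 4.32 and 4.10 in NC hearts, 5.05, 4.70, 4.71 and 4.42 in DM hearts and 4.73, 4.78, 4.91 and 4.69 in DM_AngIV hearts. All 8 diabetic hearts lay above all NC hearts, although 11 of 12 values were below the background level. For that reason no fold is given, and the differences from the fit give no size of a change. The fitted log2 difference was 0.51 ± 0.13 (limma adjusted p = 0.223) in DM against NC, 0.57 ± 0.13 (adjusted p = 0.0501) in DM_AngIV against NC and 0.54 ± 0.11 (adjusted p = 0.0411) for both diabetic groups against NC. DM_AngIV against DM was 0.06 ± 0.13. The pooled call was lost in 14 of 21 alternatives (adjusted p from 0.0154 to 0.304), among them the omission of any 1 array except DM replicate 4. In DM_AngIV against NC the call was gained in 9 of 22 alternatives, of which 1 is the looser threshold of 0.1 (adjusted p from 0.0227 to 0.141).

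The macrophage marker mean was above every NC heart in all DM_AngIV hearts and in DM replicates 1, 2 and 3. DM replicate 4, at 5.29, lay among the NC hearts. The macrophage marker list (7 of 8 genes measured, 1 of them at or below background on all arrays) had a mean level of 5.12 to 5.43 in NC, 5.29 to 6.39 in DM and 5.57 to 5.96 in DM_AngIV. All 7 were positive in DM against NC, with a median of 0.58, and in DM_AngIV against NC, with a median of 0.34. Of 7 endothelial markers, 4 were positive and 3 negative for both diabetic groups against NC. Among them Fabp4 was called (0.42 ± 0.08, limma adjusted p = 0.0349), with all diabetic hearts above all NC hearts. Over all genes 0.631% were called there. The part of macrophages or endothelial cells in the Pfkfb3 values was not tested.

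Aldolase splits fructose 1,6-bisphosphate. Aldoa, the muscle form, stood at 10.77, 10.87, 10.86 and 10.97 in NC hearts, 11.07, 10.82, 10.91 and 10.79 in DM hearts and 11.23, 11.05, 11.05 and 11.12 in DM_AngIV hearts. The DM_AngIV hearts lay above all NC hearts, and DM replicate 1 lay among them. The fold change was 0.25 ± 0.10 (1.19-fold higher, limma adjusted p = 0.259) in DM_AngIV against NC and 0.22 ± 0.10 (adjusted p = 0.661) in DM_AngIV against DM. Aldoc, the form best known from brain, read 4.19, 4.39, 4.31 and 4.29 in NC hearts, 4.80, 4.64, 4.70 and 4.85 in DM hearts and 4.41, 4.12, 4.48 and 4.56 in DM_AngIV hearts. The 4 DM hearts lay above every other heart, and all 12 values were below the background level. Its log2 difference was 0.45 ± 0.11 (adjusted p = 0.205) in DM against NC, the smallest p of the members in that comparison, and -0.36 ± 0.11 (adjusted p = 0.580) in DM_AngIV against DM. With every value below background, these differences give no size of a change. Tpi1, triose phosphate isomerase, had means of 9.35, 9.38 and 9.56.

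In the lower steps of glycolysis, which harvest ATP, 0 of 6 measured members had a positive fold change in DM against NC (median -0.17), 3 of 6 in DM_AngIV against DM (0.06) and 1 of 6 in DM_AngIV against NC (-0.18). None was called, and 2, 1 and 3 had an unadjusted limma p below 0.05, beside 8.95%, 7.48% and 14.6% of all genes. Gapdh, glyceraldehyde 3-phosphate dehydrogenase, was the 1 positive member in DM_AngIV against NC. It stood at 10.67, 10.98, 11.00 and 11.09 in NC hearts, 11.01, 10.94, 10.89 and 10.85 in DM hearts and 11.24, 11.21, 11.12 and 11.12 in DM_AngIV hearts. The 4 DM_AngIV hearts were the highest of the 12, the NC and DM hearts overlapped, and NC replicate 1 was the lowest. The fold change was 0.25 ± 0.11 (1.19-fold higher, limma adjusted p = 0.643) in DM_AngIV against DM and 0.24 ± 0.11 (adjusted p = 0.312) in DM_AngIV against NC, the latter 0.15 without NC replicate 1. In DM against NC it was -0.01 ± 0.11. Gapdh is often used as a reference gene.

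Pgk1, phosphoglycerate kinase, lay lower in DM_AngIV than in NC hearts, at 9.24, 9.38, 9.45 and 9.39 in NC hearts, 9.16, 9.12, 9.30 and 9.33 in DM hearts and 9.18, 9.13, 9.19 and 9.10 in DM_AngIV hearts. The DM_AngIV hearts were all below the NC hearts, and the DM hearts spanned both. DM_AngIV against NC was -0.21 ± 0.10 (1.16-fold lower, limma adjusted p = 0.320). Pgam1, the ubiquitous phosphoglycerate mutase, read 6.13, 6.03, 6.32 and 6.18 in NC hearts, 5.81, 5.84, 6.04 and 5.67 in DM hearts and 5.95, 5.83, 5.97 and 5.50 in DM_AngIV hearts. Its DM_AngIV hearts were below all NC hearts, and 3 of 4 DM hearts were too. Its fold change was -0.35 ± 0.12 (adjusted p = 0.195) in DM_AngIV against NC and -0.32 ± 0.12 (adjusted p = 0.456) in DM against NC. The muscle mutase Pgam2 had means of 9.70, 9.65 and 9.55, with differences within the spread of the hearts.

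Eno3, the muscle enolase, was lowest in DM hearts, at 9.23, 9.45, 9.64 and 9.68 in NC hearts, 8.79, 8.86, 9.30 and 9.19 in DM hearts and 9.36, 9.17, 9.36 and 9.25 in DM_AngIV hearts. DM replicates 1 and 2 were the lowest of the 12, and the groups overlap. The fold change was -0.46 ± 0.13 (1.38-fold lower, limma adjusted p = 0.308) in DM against NC, and -0.25 without DM replicates 1 and 2. That pair was left out after the data were seen, so the smaller difference follows from the choice. DM_AngIV against DM was 0.25 ± 0.13 (adjusted p = 0.700), and it was -0.01 against replicate 3 as the only DM heart, in the fit without atrial arrays. Of all members Eno3 had the smallest p for a slope on the atrial marker mean, -0.13 per log2 unit (adjusted p = 0.778). Pkm, pyruvate kinase, had means of 10.31 ± 0.11, 10.11 ± 0.08 and 10.27 ± 0.13 (SD, n = 4).

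The lactate genes gave no member with an unadjusted limma p below 0.05. Ldha, the lactate dehydrogenase subunit of glycolytic tissue, had means of 9.91 ± 0.16 in NC, 9.90 ± 0.13 in DM and 10.10 ± 0.04 in DM_AngIV hearts (SD, n = 4), and Ldhb, the heart subunit, 10.75, 10.63 and 10.78. Slc16a3, the lactate exporter MCT4 of glycolytic muscle, was not above background in any heart. All 3 had a negative fold change in DM against NC, from -0.12 to -0.02, and a positive one in DM_AngIV against DM, from 0.12 to 0.20.

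**Figure D4:**
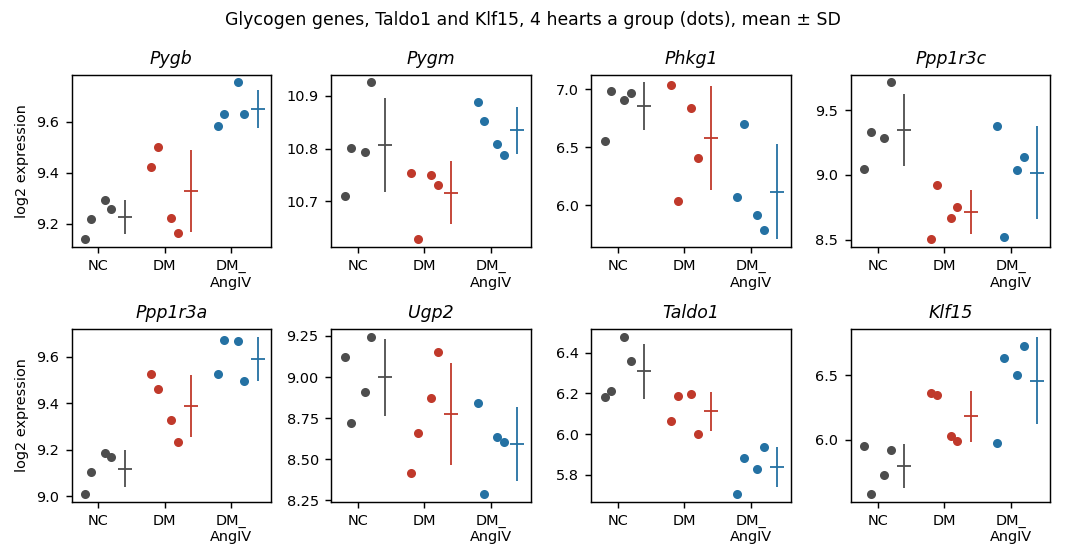
Log2 expression of glycogen genes, together with Ppp1r3a, Taldo1 and Klf15 of the related lists, in each heart of NC, DM and DM_AngIV, with group means and SD (n = 4). Pygb in DM_AngIV lies above all other hearts, and Ppp1r3c in DM lies below all NC hearts.

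Among the 10 glycogen genes, 1 had a positive fold change in DM against NC (median -0.12), 5 in DM_AngIV against DM (0.00) and 2 in DM_AngIV against NC (-0.10). None was called, and 1, 2 and 3 of the 10 had an unadjusted limma p below 0.05, beside 8.95%, 7.48% and 14.6% of all genes. In DM against NC the share was close to that of all genes. Glycogen phosphorylase releases glucose 1-phosphate from glycogen. Pygb, its brain form, which the heart also makes, stood at 9.14, 9.22, 9.29 and 9.26 in NC hearts, 9.42, 9.50, 9.22 and 9.16 in DM hearts and 9.58, 9.63, 9.75 and 9.63 in DM_AngIV hearts. The 4 DM_AngIV hearts were the highest of the 12, and the DM hearts overlapped the NC hearts. Pygb had fold changes of 0.42 ± 0.10 (1.34-fold higher, limma adjusted p = 0.0621) in DM_AngIV against NC and 0.32 ± 0.10 (1.25-fold higher, adjusted p = 0.600) in DM_AngIV against DM, and 0.10 ± 0.10 in DM against NC. DM_AngIV against NC passed the threshold with dim genes left out (adjusted p = 0.0204), with the trended and robust prior (0.00641) and without DM replicates 1 and 2 (0.0389), and missed it in the other alternatives at that threshold, up to 0.213. The omission of the 2 DM hearts, chosen after the data were seen, leaves DM_AngIV against NC at 0.42. It alters only the shared spread and the adjustment. With the atrial marker mean in the fit the values were 0.45 in DM_AngIV against NC and 0.36 in DM_AngIV against DM. The mean of 7 smooth muscle markers was 6.47 to 7.92 in NC, 6.38 to 6.89 in DM and 6.82 to 7.23 in DM_AngIV hearts. These markers were positive in 7 of 7 in DM_AngIV against DM (median 0.29) and in 4 of 7 in DM_AngIV against NC (median 0.01). Their part in the Pygb values was not tested.

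Pygm, the muscle phosphorylase, stood at 10.71, 10.80, 10.79 and 10.93 in NC hearts, 10.75, 10.63, 10.75 and 10.73 in DM hearts and 10.89, 10.85, 10.81 and 10.79 in DM_AngIV hearts. The DM_AngIV hearts were all above the DM hearts by a small step, and the NC hearts overlapped both. Pygm was at 0.12 ± 0.09 (limma adjusted p = 0.787) in DM_AngIV against DM and 0.03 ± 0.09 in DM_AngIV against NC. Its spread within groups was among the smallest measured, with a residual SD of 0.07 at percentile 0.564 of all genes. Pygl, the liver form, had means of 4.85, 4.80 and 4.77, below background.

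Phosphorylase kinase switches phosphorylase on. Its catalytic muscle subunit Phkg1 stood at 6.55, 6.99, 6.91 and 6.97 in NC hearts, 7.04, 6.04, 6.83 and 6.41 in DM hearts and 6.07, 6.70, 5.91 and 5.78 in DM_AngIV hearts. DM_AngIV replicates 1, 3 and 4 were below every NC heart, and replicate 2 was not. Phkg1 had fold changes of -0.74 ± 0.22 (1.67-fold lower, limma adjusted p = 0.117) in DM_AngIV against NC and -0.46 ± 0.22 (adjusted p = 0.666) in DM_AngIV against DM. With the atrial marker mean in the fit the former was -0.91 (adjusted p = 0.0648). The regulatory subunit Phka1 had means of 6.22, 6.08 and 6.11.

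Ppp1r3c targets protein phosphatase 1 to glycogen and favours synthesis. Its values were 9.04, 9.33, 9.29 and 9.72 in NC hearts, 8.51, 8.92, 8.67 and 8.75 in DM hearts and 9.38, 8.52, 9.04 and 9.13 in DM_AngIV hearts. All DM hearts were below all NC hearts, and DM_AngIV replicate 2 lay with the DM hearts while the other DM_AngIV hearts were at 9.04 or higher. Ppp1r3c was at -0.63 ± 0.17 (1.55-fold lower, limma adjusted p = 0.277) in DM against NC, and also at -0.63 without DM replicates 1 and 2. DM_AngIV against DM was 0.31 ± 0.17 (adjusted p = 0.713) and DM_AngIV against NC -0.33 ± 0.17 (adjusted p = 0.413).

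The enzymes of glycogen synthesis had 1 member, Ugp2, with an unadjusted limma p below 0.05, in DM_AngIV against NC. Ugp2, which makes UDP-glucose, had means of 9.00 ± 0.23, 8.78 ± 0.31 and 8.59 ± 0.23 (SD, n = 4), and DM_AngIV against NC was -0.40 ± 0.16 (limma adjusted p = 0.267). Gys1, the muscle glycogen synthase, had means of 7.80, 7.64 and 7.72. Gyg, glycogenin, which primes the chain, had means of 6.99, 6.95 and 6.92, and Gbe1, the branching enzyme, 5.79, 5.69 and 5.67.

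**Figure D5:**
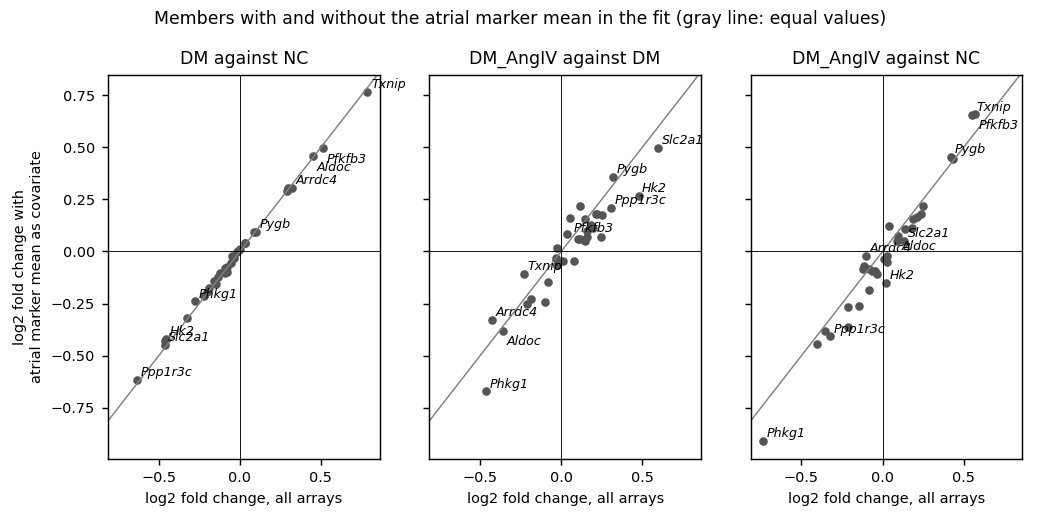
Log2 fold change of each measured member with the atrial marker mean as a covariate (vertical axis) against the fit without it (horizontal axis), 1 panel per comparison, with a gray line at equal values. DM against NC lies close to the line. The atrial marker mean averaged 5.96 in NC and 6.19 in DM, so the covariate could move that comparison little. Slc2a1 and Hk2 in DM_AngIV against DM lie below the line, at 0.50 against 0.60 and 0.27 against 0.48.

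Outside the 37 genes, 9 lists of related genes held 89 genes, of which 78 were measured. Over all genes 2 of the 78 were called, both in DM_AngIV against NC, where 1.02% of all genes were called, and 0 in the other comparisons. Of the 78, 16, 7 and 24 had an unadjusted limma p below 0.05 for diabetes, for treatment and for treated mice against NC, beside 8.95%, 7.48% and 14.6% of all genes.

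Ppp1r3a, the striated muscle subunit that brings protein phosphatase 1 to glycogen, rose in DM_AngIV against NC. It stood at 9.01, 9.11, 9.19 and 9.17 in NC hearts, 9.53, 9.46, 9.33 and 9.23 in DM hearts and 9.53, 9.67, 9.67 and 9.50 in DM_AngIV hearts. Every diabetic heart was above every NC heart. Ppp1r3a had a fold change of 0.47 ± 0.10 (1.39-fold higher, limma adjusted p = 0.0358) in DM_AngIV against NC and 0.27 ± 0.10 (adjusted p = 0.446) in DM against NC, where its relative Ppp1r3c was at -0.63. Taldo1, transaldolase of the pentose phosphate pathway, fell in DM_AngIV against NC. Its values were 6.18, 6.21, 6.48 and 6.36 in NC hearts, 6.07, 6.19, 6.20 and 6.00 in DM hearts and 5.71, 5.88, 5.83 and 5.93 in DM_AngIV hearts. The DM_AngIV hearts were below all others, and the fold change was -0.47 ± 0.10 (1.39-fold lower, adjusted p = 0.0425) against NC and -0.27 ± 0.10 (adjusted p = 0.620) against DM. Both calls were close to the threshold. Leaving out any 1 NC or DM_AngIV array lost both, and leaving out DM replicate 2 or 3 lost Taldo1 only. Both were also lost with the atrial marker mean in the fit (adjusted p = 0.0591 and 0.0575) and with the replicate number as a block (0.0739 and 0.0703). A further quantile scaling lost Ppp1r3a (0.0572), and Taldo1 was lost with arrays centred on their median (0.0545) and with only the arrays of the groups compared (0.0612). The adjusted p ranged from 0.00232 to 0.189 for Ppp1r3a and from 0.0131 to 0.206 for Taldo1 over the alternatives.

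The remaining lists had no call. Among 7 other transporters, Slc16a7 (MCT2) was at -0.35 ± 0.16 in DM_AngIV against NC and above background in 0 of 4 DM_AngIV hearts, and Slc2a10 was below background throughout. Of 11 measured genes of GLUT4 vesicle traffic, Stxbp3 was at 0.24 ± 0.10 and Trarg1 at 0.29 ± 0.13 in DM against NC, and for both genes the groups did not overlap (limma adjusted p = 0.484 and 0.524). Lnpep, the insulin-regulated aminopeptidase of those vesicles and a known binding site of angiotensin IV, was not analysed here. Among 9 other glycolysis genes, Tigar, which removes fructose 2,6-bisphosphate, was at 0.39 ± 0.12 (adjusted p = 0.150) and Pgp at -0.29 ± 0.12 in DM_AngIV against NC. Pgm2l1 of the glycogen list was at 0.37 ± 0.11 in DM against NC.

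Of 6 gluconeogenic genes, G6pc3, the ubiquitous glucose 6-phosphatase, was at -0.43 ± 0.10 in DM_AngIV against NC (limma adjusted p = 0.0621), and its DM_AngIV hearts lay below all others. Fbp2, the muscle fructose 1,6-bisphosphatase, had means of 6.78 ± 0.32, 7.49 ± 0.41 and 7.35 ± 0.46 (SD, n = 4), and its fold change was 0.71 ± 0.23 (adjusted p = 0.372) in DM against NC. In the hexosamine list, Oga was at 0.29 ± 0.12 in DM_AngIV against NC and Gfpt2 at -0.35 ± 0.15 in DM_AngIV against DM. H6pd of the pentose phosphate list was at 0.36 ± 0.15 in DM_AngIV against NC. In the polyol list Akr1b8 was at -0.40 ± 0.13 in DM_AngIV against DM (adjusted p = 0.600), and Khk, ketohexokinase, had means of 6.04, 5.90 and 5.95.

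Of 13 regulators of these pathways, 7 had an unadjusted limma p below 0.05 in DM against NC, where 8.95% of all genes had, and 7 in DM_AngIV against NC, where 14.6% had, and 0 were called. Klf15, a factor of muscle fuel use that induces Slc2a4, had means of 5.79 ± 0.17, 6.18 ± 0.20 and 6.46 ± 0.34 (SD, n = 4), with all NC hearts below all diabetic hearts, and a fold change of 0.67 ± 0.16 in DM_AngIV against NC (adjusted p = 0.0621). Epas1, the hypoxia-inducible factor HIF2A, had means of 7.81 ± 0.23, 8.12 ± 0.28 and 8.39 ± 0.14 and a fold change of 0.58 ± 0.15 (adjusted p = 0.0761). Mlxipl, the gene of the glucose-responsive factor ChREBP, was chosen after its values were seen: its means were 5.98 ± 0.16, 5.52 ± 0.24 and 5.39 ± 0.41, and all diabetic hearts were below all NC hearts (DM_AngIV against NC -0.59 ± 0.18, adjusted p = 0.130). Klf15 and Epas1 stood beside Slc2a4 at -0.03 ± 0.12 in the same comparison.

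Of the 5 pairs of members examined for their shared roles, 0 passed over the 12 hearts. Besides Txnip and Arrdc4, r was 0.11 for Slc2a4 and Tbc1d4, -0.24 for Slc2a1 and Hk1, 0.21 for Pygm and Phka1 and -0.20 for Ldha and Pgk1. Spearman's rho was 0.03, -0.17, 0.18 and -0.26. The permutation p adjusted over the 5 pairs was 0.717 for the first and 0.652 for the others by r, and from 0.739 to 0.934 by rho. Without the 2 hearts farthest from the median of the first gene, r was 0.15, -0.21, 0.21 and -0.13. On residuals from the group means it was 0.12, 0.77, 0.06 and 0.33, so the sign turned for Slc2a1 with Hk1 and for Ldha with Pgk1.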

How the data were processed

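Myocardial RNA of 12 mice, 4 per group, was hybridised to 1 single-colour array each. The authors deposited log2 expression values as 1 table, made with RMA per the submitters' processing notes, and its version is not given in the sources used here. RMA sets arrays to a common distribution, so shifts shared by most genes are removed. The platform annotation names 1 gene for 19572 of 29129 probe sets and several for 0, which gave 19505 genes. The probe set of highest mean stood for each of the 55 genes with several.

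Each comparison was a contrast in 1 linear model with a mean per group (lmFit and eBayes, limma 3.58.1, R 4.3.3), two-sided, and p-values were Benjamini-Hochberg adjusted over all genes, with a call below 0.05. Scripts were tested on simulated data. Array number limits the precision, and p-values measure the spread between these samples. Same-numbered samples had correlations of deviations from -0.0980 to 0.171, above 0.1 in 1 of 12 pairs, so numbers were not taken to pair samples.

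Members and lists were chosen with earlier results of these data known. Values array by array are given for members whose groups do not overlap, the 4 with the smallest p per comparison, and Slc2a1, Slc2a4, Txnip, Hk2 and Pygm, 18 members in all. Of the related lists, called genes, or else the 2 with the smallest p, are named. Pgm2l1, H6pd and Mlxipl are named outside this rule. The marker lists were atrial, ventricular, skeletal muscle, fibroblast, endothelial, macrophage, smooth muscle, adipocyte and erythroid. Protein sequences were not analysed here. Figures were drawn with matplotlib 3.10.9.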

Additional observations from a re-analysis of the deposited data

How the results depend on the processing

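The alternatives changed the threshold, left out dim genes or single arrays, took another probe set rule, scaling, variance prior or set of arrays, weighted the arrays, or added the replicate block or the atrial signal. The omission of DM replicates 1 and 2 together was chosen after seeing the data. The pair holds the lowest Slc2a1, Slc2a4 and Eno3 values and the highest Txnip values, so smaller differences there follow from the choice. In DM_AngIV against NC, leaving out DM arrays keeps the fold changes and alters only the shared spread and the adjustment. The count of called members stayed at 0 in DM against NC and in DM_AngIV against DM in all 23 alternatives each. With 4 arrays a group and values near background for Pfkfb3, Aldoc, Pygl and Slc16a3, small differences are not resolved. The causes of the changes below were not tested.

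In DM against NC (3 genes called), genes called numbered 17 at an adjusted p below 0.1, 20 with dim genes left out, 28 with the trended and robust prior, 0 without the arrays with atrial signal (1 DM and 2 NC hearts left, so void as a check), 0 without DM replicates 1 and 2, and 2 to 30 with 1 array left out. By limma 1745 genes had an unadjusted p below 0.05. In DM_AngIV against DM (0 called, 1459 at an unadjusted p below 0.05) they were 2 without DM replicates 1 and 2 and 0 to 5 with 1 array left out. In DM_AngIV against NC (198) they were 509, 492, 514, 115 with the replicate block, 50 without atrial arrays, 360 without DM replicates 1 and 2 and 81 to 302 with 1 array left out. Members called there (0) were 2 at 0.1, 1 (Pygb) with dim genes left out, 1 each (Pfkfb3) with centring, quantile scaling, array weights, 2 groups only and the atrial covariate, 2 (Pfkfb3 and Pygb) with the trended prior and without DM replicates 1 and 2, and 0 to 1 with 1 array left out. For both diabetic groups against NC (123 genes, 1 member), genes were 320, 328, 71 with array weights, 362, 40 with the block, 1 without atrial arrays, 23 without DM replicates 1 and 2 and 16 to 231. Members were 0 with dim genes left out, which drops Pfkfb3, with weights, with the block, without atrial arrays and without DM replicates 1 and 2, and 0 to 1 with 1 array left out. The replicate block, under numbers that do not pair the samples, left members called at 0 in the other comparisons.

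The median of the members in DM_AngIV against NC ranged from -0.041 to 0.038 with 1 array left out. Among the members named in a comparison, as tested there, and the 5 pairs, signs turned for Txnip, Hk2, Pygm and Slc2a4 and for 2 pairs, and other members such as Arrdc4 and Eno3 turned in other comparisons. Without atrial arrays DM is 1 heart. Txnip in DM_AngIV against DM was 0.0072 without atrial arrays and 0.17 without DM replicates 1 and 2. In DM_AngIV against NC, Hk2 was -0.026 with quantile scaling, -0.022 with weights, -0.15 with the atrial covariate, -0.0096 without atrial arrays and -0.13 to 0.15 with 1 array left out. Pygm was -0.021 with the covariate, -0.028 without atrial arrays and -0.0047 to 0.067 with 1 array left out, and Slc2a4 -0.10 to 0.050. On residuals from the group means, r was 0.77 for Slc2a1 and Hk1 and 0.33 for Ldha and Pgk1.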

Other observations

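Txnip and Slc2a1, a pair chosen after their values were seen, had a Pearson r of -0.67 and a Spearman rho of -0.55 over the 12 hearts. Without NC replicate 3 and DM replicate 1, r was -0.48, and over the 8 hearts without the DM group it was -0.12. On residuals from the group means it was -0.78. The pair was picked from these same values, so these are descriptions and no p-value is given. DM replicates 1 and 2 had the highest Txnip and the lowest Slc2a1, and they also had high Myl7. NC replicates 1 and 3 and DM replicate 4 had high Myl7 too. Their Txnip values were 10.11, 9.86 and 10.29 and their Slc2a1 values 6.63, 6.62 and 6.47.

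Within groups Slc2a1 and Hk1 varied together (r of residuals 0.77, a description with no test), although their group means lay in opposite directions in DM hearts. DM replicate 1 was the lowest DM heart for both genes (5.66 and 8.80), and the residual r without that heart was not computed.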
